A study of Mus musculus with 2 samples.

Results

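Glutathione S-transferases were followed in gastrocnemius muscle that had lost its nerve supply. The set held 10 genes, Gsta2, Gsta3, Gsta4, Gstm1, Gstm2, Gstm5, Gstp1, Gstt1, Gsto1 and Gstk1, out of 22348 gene names on the array. They were chosen by name, and 13 of the 41174 non-control probes carried one of these names. The denervated sample was RNA pooled from 6 male C57BL/6 mice, denervated for 14 days from 7 weeks of age and sampled at 9 weeks. The control sample was RNA pooled from 6 male C57BL/6 mice of the same age. One label names the control a sham and another only a control, so whether these mice were operated on is not settled. Each pool was hybridised to 1 single-colour Agilent array on the same slide, so there was no replicate array, no test and no p-value, and every difference describes these 2 pools.

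Glutathione S-transferases join the tripeptide glutathione to reactive compounds, among them products of lipid peroxidation, or use it to reduce peroxides. Cytosolic forms are grouped by sequence into alpha, mu, pi, theta, omega and other classes, and most classes lie in gene clusters. The kappa enzyme stands apart and works in mitochondria and peroxisomes. Many alpha, mu and pi genes are known targets of NRF2, a transcription factor that binds the antioxidant response element.

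Values are scaled signals, in which the 75th percentile of an array's probes is 100. Each log2 difference is that of denervated over control muscle, so a positive one means higher after denervation. The figure after ± combines the spot errors that the scanning software gave for the 2 arrays. It is technical only and does not hold the spread between mice. For bright spots the software sets the error at 10% of the signal. The figure of 0.20 for bright probes is therefore a setting and not a measured spread. A probe is called dim where the software did not mark it as well above background, and past 2-fold is used as a threshold of size. All 13 probes were well above background in denervated muscle and 12 in control muscle, and none was saturated. The dim one was the Gsta2 probe in control muscle.

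Muscle identity was checked first. The fibre genes Acta1, Ckm, Myh4, Tnnt3 and Mylpf were well above background on both arrays, with differences of -0.72 to -0.21. With scaling by spike-in probes these ran from -0.32 to 0.19, and Myh4 and Tnnt3 were above 0. The liver genes Alb, Apoa1 and Ttr were dim on both arrays. The tissue was measured in bulk, so more or fewer cells of a type and more or less RNA per cell cannot be told apart. All 6 macrophage markers (Cd68, Lyz2, Adgre1, Csf1r, Lgals3 and Mrc1) were past 2-fold higher in denervated muscle, with a summed signal of 5756 there against 1871 in control muscle. None of the 6 was dim. Their part in the transferase differences below was not tested. The 5 endothelial markers summed to 957 in denervated muscle and 1614 in control muscle. The 5 adipocyte markers summed to 6963 in denervated and 9350 in control muscle. Of the macrophage sum, Lyz2 alone gave 4444 in denervated and 1589 in control muscle. Fabp4 alone gave 6768 and 9041 of the adipocyte sum, in the same order. The median difference was -0.56 for the endothelial and -0.76 for the adipocyte markers, or -0.16 and -0.36 with scaling by spike-in probes. Medians of the fibroblast, Schwann cell, smooth muscle and red blood cell markers were 0.15, -0.04, -0.77 and -0.57.

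The 10 genes did not move as a block. Gsta2, dim in control muscle, was higher in denervated muscle with a bound of 20.0-fold, or of log2 1.98 with another background correction (normexp). Gstt1, Gstp1, Gstm2 and Gstm1 were higher by 1.42-fold to 1.97-fold. Gstk1 was lower by 2.94-fold, Gsta3 and Gstm5 were lower by less, and Gsta4 and Gsto1 lay near 0. Of the 9 genes above background in both pools, 0 were past 2-fold higher, where 6.88% of all 15869 measured genes were. Gstk1 alone, 1 of the 9, was past 2-fold lower, where 8.59% of all measured genes were. The median difference of the 9 was -0.06, and that of all measured genes was -0.11. Scaling by the 8 spike-in probes instead moved every gene up by 0.40, which put 14.4% of all measured genes past 2-fold higher and 4.16% past 2-fold lower. On that scale 2 of the 9 (Gstp1 and Gstt1) were past 2-fold higher and Gstk1 still lower, with a median of 0.34 beside 0.29 for all measured genes.

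**Figure D1:**
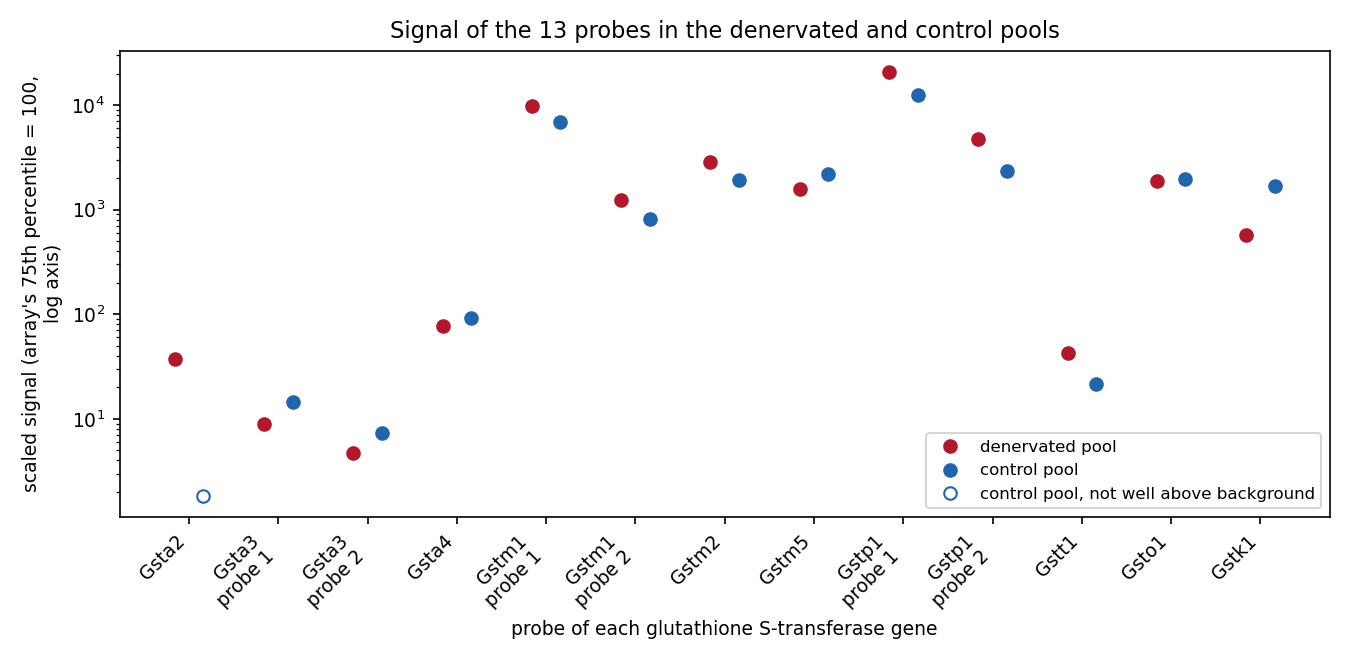
Scaled signal (log axis) of each of the 13 probes in denervated muscle (red, left of each pair) and the control pool (blue), 1 array each. The open symbol marks the Gsta2 probe, which was not well above background in control muscle. The red point is the higher one for the Gsta2, Gstm1, Gstm2, Gstp1 and Gstt1 probes.

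The alpha class held the most extreme value of the set. Gsta2, an antioxidant-inducible alpha enzyme, had a scaled signal of 37.0 in denervated muscle and 1.85 in control muscle. The control spot was dim, but the software still marked it as positive, with a raw mean intensity of 72.1 over a background of 58.5. The lowest signal marked as well above background on the control array was 1.84. The gene's own dim control signal of 1.85 therefore set the bound of 20.0-fold (log2 4.33 ± 0.41). Of 426 genes above background in denervated muscle only, 40.6% had a bound of 2-fold or more. With normexp background correction, which adds a constant of 50 to both signals, the bound was log2 1.98.

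The Gsta2 probe is not specific to Gsta2. The array's accession field lists both Gsta2 and Gsta1 transcripts for it (probe on chromosome 9 at 78119521 to 78119580, minus strand, mm8). The probe named for Gsta1, the closest relative of Gsta2, lists the same pair of genes. That probe read 98.6 in denervated muscle and 5.95 in control muscle, both well above background. Its difference was 4.05 ± 0.22, higher than that of 99.8% of measured genes. With normexp background correction it was 2.83. Which of the pair gave the signal was not tested.

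The other alpha members did not share this difference. Gsta3, an alpha enzyme encoded on another chromosome, had scaled signals of 8.88 in denervated muscle and 14.4 in control muscle by its brighter probe. Its second probe read 4.71 in denervated muscle and 7.39 in control muscle. Under the percentile scaling both probes were thus lower in denervated muscle, by 1.63-fold (-0.70 ± 0.22) and by a log2 difference of -0.65 ± 0.28. The brighter probe lay at -0.30 with spike-in scaling and -0.27 with no scaling. The probes lie on chromosome 1 at 21250259 to 21250318 and 21250162 to 21250221 (plus strand, mm8). Taken at its bound, Gsta2 exceeded Gsta3 in log2 difference by 5.03 ± 0.46, which no scaling constant changes. With normexp background correction this gap was 2.65. Both figures rest on the dim Gsta2 control spot and are not minimum values.

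Gsta4, which favours the lipid peroxidation product 4-hydroxynonenal, was printed as 10 spots per array. In the denervated pool its spots ran from 73.0 through a median of 78.0 to 82.7, and in control muscle from 83.6 through 93.3 to 99.4. The spots of the 2 arrays did not overlap, and the mean log2 difference was -0.25 against a spot-to-spot SD of 0.10 for that difference. The spots share 1 labelled pool per array, so this spread is that of printing and scanning. The order of the pools turned with the scaling, to 0.15 with spike-in controls and 0.18 with no scaling, so Gsta4 had no settled direction. Its probe maps over 1173 bases of chromosome 9 (77984049 to 77985221, mm8), against 60 bases for most probes, so its match is split on the genome. Of the 13 member probes 3 spanned over 100 bases, the others being that of Gstt1 (7165 bases) and the second of Gstp1 (816 bases).

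**Figure D2:**
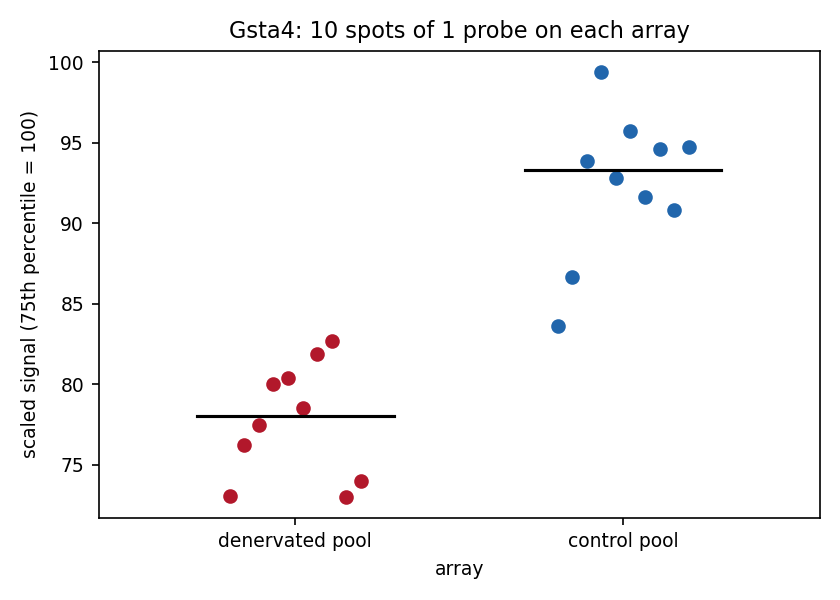
Scaled signal (75th percentile of each array = 100; the axis does not start at 0) of the 10 spots of the Gsta4 probe in denervated muscle (left) and the control pool (right), with the median as a bar. Every denervated spot, the highest at 82.7, lies below every control spot, the lowest at 83.6, under this scaling.

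The mu class split within its gene cluster. Gstm1, an abundant mu enzyme of many tissues, read 9783 in denervated muscle and 6900.4 in control muscle by its brighter probe, a difference of 0.50 ± 0.20. Its second probe read 1226 in denervated muscle and 819 in control muscle, a difference of 0.58 ± 0.20. Gstm2, a mu enzyme known from skeletal muscle and heart, read 2849 in denervated muscle and 1931 in control muscle, a difference of 0.56 ± 0.20. The 3 probes of these 2 genes therefore gave nearly one value. Gstm5, a mu enzyme known best from brain and testis, stood on the other side with 1563 in denervated muscle and 2178 in control muscle (-0.48 ± 0.20). Its difference was within the technical error with spike-in scaling (-0.08) and no scaling (-0.05). Gstm2 exceeded Gstm5 by 1.04 ± 0.29 in log2 difference and Gstm1 exceeded it by 0.98 ± 0.29. The differences of Gstm2 and Gstm1 were 0.06 ± 0.29 apart, less than the technical error.

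Neighbouring mu genes outside the set, named for their position after their values were seen, gave the same mixture. On chromosome 3 (mm8) the probes run in the order Gstm5 (108026239 to 108026298), Gstm7 (108054776 to 108054835), Gstm6 (108069107 to 108069251), Gstm3 (108091868 to 108091927), Gstm2 (108109760 to 108109819), Gstm1 (108140318 to 108140377) and Gstm4 (108168940 to 108168999). Gstm7 lay at -0.75 ± 0.21, beside Gstm5 and on the same side of 0. Gstm3 lay at 0.32 ± 0.20. Gstm6, dim in control muscle, had a bound of 1.67-fold higher (log2 0.74 ± 0.39). Its own dim control signal set that bound, so it is not a minimum. Gstm4, at the far end, lay at -0.20 ± 0.20 and had no settled direction (0.20 with spike-in controls). The 3 central genes Gstm3, Gstm2 and Gstm1 were thus the higher ones measured on both arrays, and Gstm5, Gstm7 and Gstm4 toward the ends lay below 0 under the percentile scaling. Mu genes are close in sequence, and cross-hybridisation between them was not tested, although the accession field lists 1 gene for each member's mu probe.

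**Figure D3:**
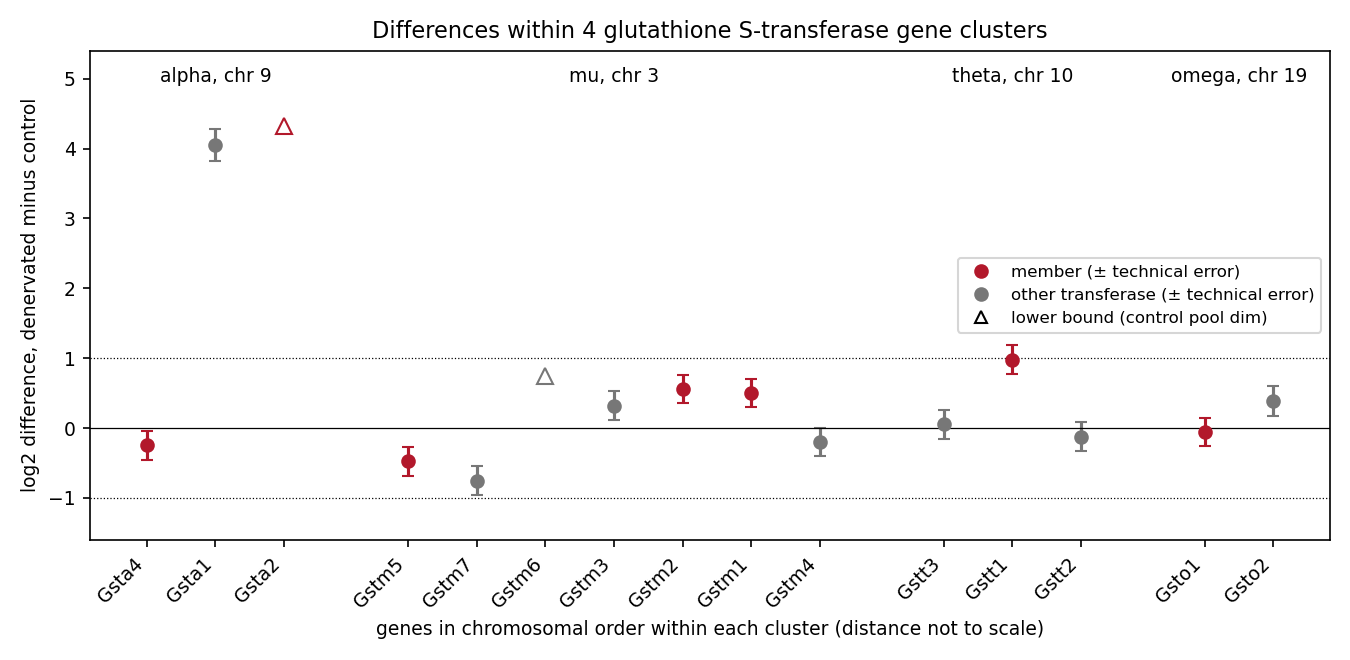
Log2 difference (denervated minus control) of transferase genes in chromosomal order within the alpha, mu, theta and omega clusters, with the technical error as bars, members in red and other genes in grey. Triangles are the bounds of Gsta2 and Gstm6, set by their own dim control signals, and dotted lines mark 2-fold. Gsta1 and Gsta2 lie above 4, and Gstm3, Gstm2 and Gstm1 lie above 0, while Gstm5, Gstm7 and Gstm4 lie below it under the percentile scaling.

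Gstp1, the pi class enzyme and a regulator of stress kinase signalling, was higher by both of its probes. The brighter one read 20730.1 in denervated muscle and 12554.5 in control muscle, a difference of 0.72 ± 0.20 that exceeded 88.8% of measured genes. Its second probe read 4688 in denervated muscle and 2361 in control muscle, a difference of 0.99 ± 0.20. The differences of the 2 probes lay 0.27 apart. The accession field lists Gstp2, a near copy, beside Gstp1 for the brighter probe (chromosome 19, 4035486 to 4035545, mm8), and Gstp1 alone for the second (4035908 to 4036723). The brighter probe passed 2-fold under quantile scaling (1.01), spike-in scaling (1.12) and no scaling (1.16).

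Gstt1, a theta enzyme that acts on small halogenated compounds, had the largest positive difference among the 9 genes measured on both arrays. It read 42.2 in denervated muscle and 21.4 in control muscle, a 1.97-fold difference (0.98 ± 0.21). This lay just under 2-fold, above 92.8% of measured genes, and passed 2-fold under each of the 5 other scalings (1.03 to 1.41). With normexp background correction it was 0.71. Its theta neighbours on chromosome 10, again named for position, were close to 0 under the percentile scaling, with Gstt3 at 0.05 ± 0.20 and Gstt2 at -0.12 ± 0.20. Gstt1 exceeded them by 0.92 ± 0.29 and 1.10 ± 0.29. The theta gene Gstt4, also there, has 2 probes that disagreed. One, dim in control muscle, was at least 1.80-fold higher, and the other, dim in denervated muscle, was at least 1.28-fold lower.

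Gsto1, an omega enzyme that reduces dehydroascorbate and mixed disulphides, read 1888 in denervated muscle and 1961 in control muscle. The difference of -0.06 ± 0.20 was within the technical error, and it reached 0.34 with spike-in controls and 0.38 with no scaling. Its chromosome 19 neighbour Gsto2 lay at 0.39 ± 0.22, and Gsto1 fell short of it by 0.45 ± 0.30 in log2 difference (-0.45 for Gsto1 minus Gsto2). With normexp background correction that gap was -0.03. Another Gsto2 probe was dim on both arrays and was not used.

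Gstk1, the kappa enzyme of mitochondria and peroxisomes, was the only member past 2-fold lower. It read 572 in denervated muscle and 1681 in control muscle, a difference of -1.56 ± 0.20, and only 3.31% of measured genes had a lower one. It stayed past 2-fold under the 5 other scalings (-1.54 to -1.12). Gstp1 exceeded Gstk1 by 2.28 ± 0.29 in log2 difference. The Gstk1 probe (chromosome 6, 42179974 to 42180035, mm8) takes its gene name from the array design and lists no RefSeq transcript.

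**Figure D4:**
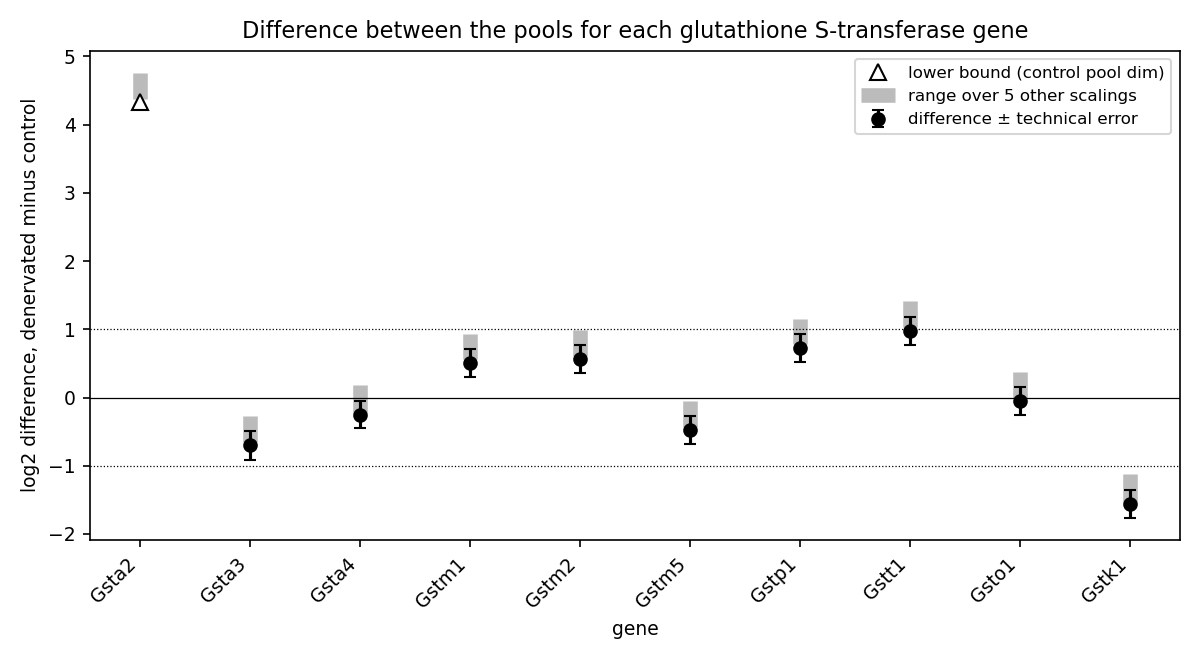
Log2 difference (denervated minus control) of the 10 genes by their brightest measured probe, with the technical error as bars and the range over 5 other scalings in grey. The triangle is the bound of Gsta2, set by its own dim control signal, and dotted lines mark 2-fold. Gstk1 lies below the lower dotted line under all scalings shown, and Gsta4 and Gsto1 span 0.

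Promoters were searched for the antioxidant response element, on both strands, in the window from 250 bases before to 50 bases after each start site (RefSeq, GRCm38.p6). The table held windows for 9 of the 10 genes, 10 windows in all, and Gsta4 was the gene without one. The core TGACNNNGC was found in 2 of the 10 windows, and in 12.4% of all 32851 promoter windows. These 2 were Gsta3, with TGACATTGC starting 121 bases before the start site, and Gstm5, with TGACCACGC starting 42 bases before it. Under the percentile scaling both genes were lower in denervated muscle. With spike-in and no scaling Gsta3 lay at -0.30 and -0.27, and Gstm5 was within the technical error. The windows of Gsta2, Gstm1, Gstm2, Gstp1, Gstt1, Gsto1 and Gstk1 held no match. A related form, TGANTCAGC, which contains the AP-1 site TGANTCA and overlaps the core where N is C, was added after the Gstp1 window had been read. It was found in Gstp1 alone of the 10 windows, as TGAGTCAGC starting 74 bases before the start site, and in 1.19% of all windows. A match is a description of these letters, and elements farther from the start site were not searched. The windows below are those of both genes past 2-fold (Gsta2, chr9:78347096-78347395, minus strand, and Gstk1, chr6:42245685-42245984, plus strand) and 2 with a match in capitals (Gsta3, chr1:21240335-21240634, plus strand, and Gstp1, chr19:4037863-4038162, minus strand), each 5′ to 3′ along the gene.
Gsta2: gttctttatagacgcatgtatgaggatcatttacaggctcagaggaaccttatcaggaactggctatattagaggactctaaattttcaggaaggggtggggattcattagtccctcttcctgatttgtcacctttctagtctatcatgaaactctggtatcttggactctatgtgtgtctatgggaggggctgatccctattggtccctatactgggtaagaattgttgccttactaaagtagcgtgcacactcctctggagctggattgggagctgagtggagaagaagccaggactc
Gstk1: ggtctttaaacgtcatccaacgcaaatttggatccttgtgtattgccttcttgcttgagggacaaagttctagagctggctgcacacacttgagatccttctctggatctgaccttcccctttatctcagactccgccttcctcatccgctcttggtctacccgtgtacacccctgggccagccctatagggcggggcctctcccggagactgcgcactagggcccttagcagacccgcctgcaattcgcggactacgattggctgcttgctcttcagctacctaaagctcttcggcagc
Gsta3: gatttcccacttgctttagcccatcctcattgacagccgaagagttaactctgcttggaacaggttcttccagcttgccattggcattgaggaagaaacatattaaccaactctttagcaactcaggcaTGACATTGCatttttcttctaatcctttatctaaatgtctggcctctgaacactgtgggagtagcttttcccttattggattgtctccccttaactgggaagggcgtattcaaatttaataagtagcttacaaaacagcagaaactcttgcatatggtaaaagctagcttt
Gstp1: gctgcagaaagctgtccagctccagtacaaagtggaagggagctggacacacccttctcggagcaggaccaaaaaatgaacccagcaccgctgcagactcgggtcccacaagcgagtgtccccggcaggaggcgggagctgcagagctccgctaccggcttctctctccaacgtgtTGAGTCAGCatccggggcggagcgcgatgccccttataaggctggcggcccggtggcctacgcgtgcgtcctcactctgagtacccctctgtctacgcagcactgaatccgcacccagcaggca

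The wider family also differed both ways. Of 22 other transferases and related membrane enzymes listed, 19 had a probe and 15 were measured on both arrays. Past 2-fold, 2 of these 15 (13.3%) were higher and 1 (6.67%) was lower, beside 6.88% and 8.59% of all measured genes, and the median was 0.18. Beside Gsta1, the higher one was Ltc4s, the leukotriene C4 synthase of myeloid cells, at 1.27 ± 0.22 (18.8 in denervated muscle, 7.82 in control muscle). Hpgds, the prostaglandin D synthase of the sigma class, was dim in control muscle and at least 2.78-fold higher. With normexp background correction neither was past 2-fold (0.67 for Ltc4s and a bound of 0.18 for Hpgds). The lower one was Mgst3, a microsomal glutathione peroxidase, with 544 in denervated muscle and 3694 in control muscle. Its difference of -2.76 ± 0.20 was matched by a second probe at -2.83 ± 0.20, and its remaining probe, dim in denervated muscle, gave a bound of at least 16.6-fold lower. Mgst1, the microsomal transferase of liver, lay at -0.85 ± 0.20 with its second probe at -0.79 ± 0.20.

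Enzymes that make, recycle or consume glutathione came next. Of 37 such genes, 34 were measured, and past 2-fold 3 of them (8.82%) were higher and 1 (2.94%) was lower. These shares stand beside 6.88% higher and 8.59% lower among all measured genes, and the median was 0.17. The higher ones were Pgd, a source of NADPH (2.27 ± 0.20), Ggt6, of the gamma-glutamyl transferase family (2.22 ± 0.20), and Gclm, the modifier subunit of the rate-limiting ligase (1.04 ± 0.20). The catalytic subunit of that ligase, Gclc, named after its value was seen, read 408 in denervated muscle and 353 in control muscle (0.21 ± 0.20). The lower one was glutaredoxin, Glrx (-1.22 ± 0.20), which was not past 2-fold with spike-in scaling (-0.82) or no scaling (-0.79). Chac1, which breaks glutathione down, lay at -0.92 ± 0.20, and the cystine carrier Slc7a11 was dim in denervated muscle, with a bound of 2.58-fold lower or more. That bound was under 2-fold with spike-in scaling, no scaling or normexp correction (log2 -0.97 to -0.94).

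The last list held NRF2, its small MAF partners, its regulators Keap1 and Bach1, and other textbook targets. Past 2-fold, 9 of its 27 measured genes (33.3%) were higher, beside the 6.88% of all measured genes, and 1 was lower. The median was 0.39. Of the 9, 3 were NRF2 itself or partners (Nfe2l2, Maff and Mafk), and 6 were among the 21 measured targets. Thioredoxin Txn1 lay at 2.37 ± 0.20, haem oxygenase Hmox1 at 2.24 ± 0.20 and sulfiredoxin Srxn1 at 1.82 ± 0.20. Mafk, a small MAF partner of NRF2, lay at 1.47 ± 0.20. The lower one was the aldo-keto reductase Akr1b10 at -1.68 ± 0.20. Nfe2l2, which encodes NRF2, lay at 1.32 ± 0.20 by its brightest probe and the classical target Nqo1 at 0.39 ± 0.20, both named, like Maff, after their values were seen. The probes of Nfe2l2 disagreed in size, with 0.91 for their mean and 0.25 for the smallest. Hmox1 is also expressed in macrophages, whose markers were all higher, and the part of those cells was not tested.

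**Figure D5:**
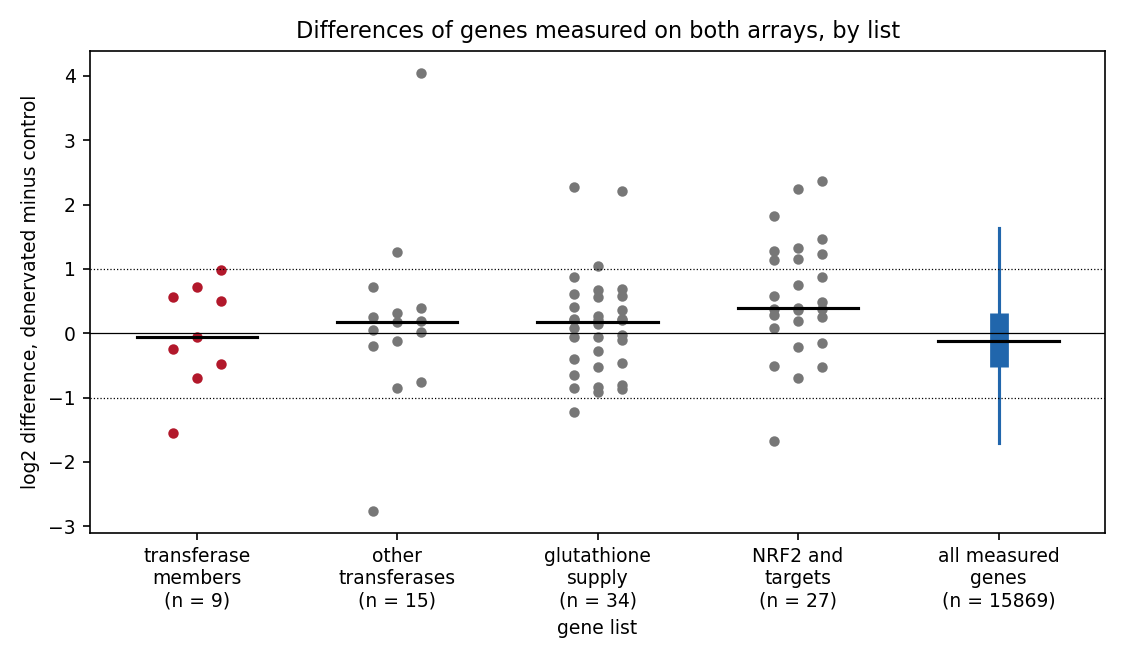
Log2 difference (denervated minus control) of each gene measured on both arrays in the 10-gene set (red) and in 3 further lists (grey), with the median as a bar. For all 15869 measured genes the thick bar spans -0.53 to 0.31 (quartiles) and the thin line -1.71 to 1.63 (central 95%). The median of the 10-gene set lies at -0.06 and that of the NRF2 list at 0.39.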

How the data were processed

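Total RNA of gastrocnemius muscle was pooled from 6 denervated and from 6 control mice, and 1.65 µg of Cy3-labelled cRNA per pool was hybridised, per the labels. The deposited intensity values were made with Agilent Feature Extraction 9.5 (9.5.3.1 per the file headers), which subtracted background and detrended each array, without scaling between arrays. The authors' deposited value table holds whole numbers on a linear scale, treated as a score. Its 75th percentile is 100 on both arrays, and it served as an alternative.

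From 43379 non-control spots, those marked as non-uniform or as population outliers (81 denervated, 87 control) were left out. The spots of a probe were averaged as log2 intensity, and the array's 75th percentile was subtracted (1063 denervated, 788 control). A gene took its brightest probe among those above background in both pools and not saturated. For a gene dim on 1 array, the bound uses the higher of its own dim signal and the lowest signal well above background there. Of the probes, 68.4% in denervated muscle and 70.9% in control muscle were well above background. Only 1 array per group limits the precision, and its median technical error was 0.20. Accessions were named through RefSeq (GRCm38.p6) for 23366 of 41174 probes and 9 of the 10 members. Probe positions are those of the files (mm8), and no mm8 annotation was used, so exon and UTR are not given.

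The members and gene lists were chosen with earlier results of these data known. Named genes were all members, the 5 largest absolute differences of each further list, and bounds of 2-fold or more. Alternatives covered scaling, background (normexp, offset 50, limma 3.58.1 in R 4.3.3), the deposited table, dim probes, marked spots and the choice of probe. The calculation was tested on simulated data with the same background flags on both arrays and no repeated spots. Bounds and the averaging of spots were therefore not tested.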

Additional observations from a re-analysis of the deposited data

How the results depend on the processing

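Counts past 2-fold include bounds here, and shares are of all genes measured on both arrays, without bounds. Bounds of 2-fold or more were held by 40.6% of the 426 genes above background in denervated muscle only. Members at least 2-fold higher numbered 1, and 2 with median or loess scaling (Gsta2 and Gstt1), and 3 with quantile, spike-in or no scaling (Gstp1 added). Of all measured genes 6.88% were higher under the percentile scaling, 7.49% with median, 8.03% with loess and 7.88% with quantile scaling. Members at least 2-fold lower numbered 1 under all 12 alternatives. The share of all genes lower was 8.59% under the percentile scaling. It ran from 3.91% with no scaling to 11.7% with no filter on dim probes, which counts dim genes too. The members' median of -0.06 became 0.34 with spike-in scaling, 0.38 with no scaling and 0.22 with no filter on dim probes, which adds Gsta2. Other transferases past 2-fold higher numbered 3, against 5 with spike-in scaling, 5 with no scaling and 1 with normexp correction. With normexp correction 4.83% of measured genes were higher. Glutathione supply genes numbered 3 higher, against 7 with spike-in scaling and 8 with no scaling. Those lower numbered 2, against 0 with spike-in or no scaling and 1 with normexp correction or with the deposited table. The shares of all measured genes lower were 4.16%, 3.91%, 5.88% and 9.53% in that order. The counts of the NRF2 list stayed within 1.5 times under all 12 alternatives. Its higher genes numbered 9, against 7 by the mean or the smallest difference of a gene's probes and 12 with no scaling. By the mean and the smallest difference, 6.44% and 5.75% of measured genes were higher. Spike-in scaling moved every gene up by 0.40 and no scaling by 0.43, so that 14.4% and 15.3% of measured genes were then at least 2-fold higher. Gsta4 and Gsto1 changed sign there, and Gsto1 also with 1 other alternative. The other 8 members kept their sign under all 12 alternatives. No paired analysis was possible because each group is 1 array. Gsta2, dim in control muscle, is limited by signal over background there.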
